A study of Mus musculus with 6 samples.

Results

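Genes of nebulin family proteins, leiomodins, tropomodulins and muscle cofilin were followed in newborn mouse muscle with and without Klhl40, over every array probe annotated to 1 of them. The genes were Neb, Nebl, Nrap, Lasp1, Lmod2, Lmod3, Tmod1, Tmod3, Tmod4 and Cfl2, and these 10 of the 19057 named genes on the array had 18 of its 45281 probes. C57BL/6 mice aged 0 days gave total RNA from the quadriceps of the thigh. The groups were 3 wild-type mice (WT) and 3 Klhl40 knock out mice (KO), each KO mouse having been killed together with a WT littermate, with 1 Illumina bead array per mouse. The sources used here describe the knock out allele no further.

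The thin filament of the sarcomere is a polymer of actin that carries tropomyosin and troponin. Nebulin lies along it and helps to fix its length, tropomodulins cap its slow-growing pointed end, leiomodins start and extend actin filaments, and cofilins sever them. Nebulin and leiomodin-3 are both partners of the muscle kelch protein Klhl40, and loss of human KLHL40, NEB, LMOD3 or CFL2 causes nemaline myopathy, a muscle weakness with rods of thin filament and Z-disc material. The comparison therefore asks whether transcripts of these partners and relatives differed when Klhl40 was missing.

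Levels are log2 normalised intensities, differences are KO minus WT on that log2 scale, and a probe counted as detected on an array when its detection p, read against the array's negative controls, was under 0.05. Probes detected on at least 3 of the 6 arrays were tested, which left 19099 of all probes and 14 of the 18. The 14 belonged to 8 genes; Nebl and Lmod2 had no probe that passed. None of the 14 was admitted by 1 group alone, since each was detected on at least 2 arrays of both groups. Intensities of different probes depend on the probe itself, so no level is set against that of another probe.

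Klhl40 itself checked the labels. It fell from a WT mean of 10.72 ± 0.08 to a KO mean of 4.99 ± 0.66 (SD, n = 3 in both), detected on every WT array and on 1 KO array (difference -5.73, SE 0.29, limma adjusted p = 0.000875). Because KO lay at or near background, the size depends on the background correction, and it was -3.87 without one. Of 10 fixed skeletal fibre markers 9 were measured, each detected on all 6 arrays, with differences of -0.12 to 0.41. Of these 0 passed the limma threshold and 2 were higher at an unadjusted p under 0.05, against 3.92% of all probes. Of 8 cardiac markers Myh6 and Myl4, which immature skeletal muscle also transcribes, were the 2 that passed the filter, with differences of -0.04 and -0.002, and 5 more on the array were too dim to pass. WT 3 stood apart from the other arrays, at 37.4 on the first principal component (42.8% of the variance) against -17.1 to 10.7, and its median adipocyte marker deviated by 1.85 from the mean of the 6 arrays, where the other 5 deviated by -0.95 to 0.15.

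Nrap was the member with a probe past the threshold, a call that did not hold with the littermate pairs as a block (limma adjusted p = 0.0579). Nrap, the nebulin-related anchoring protein, is a striated muscle protein of the nebulin family that takes part in building myofibrils at the ends of the cell. Probe ILMN_3138732 rose 1.91-fold, and 1 of the 14 member probes thus passed as higher, against 0.12% of all probes tested, while 0 passed as lower, against 0.0314%. At an unadjusted limma p under 0.05 there were 2 member probes higher, against 3.92% of all probes, and 1 lower, against 3.09%. A second Nrap probe had a difference of 0.81 and missed the threshold, and the remaining one, close to background, had a small one. In bulk tissue a different number of cells of a type and a different amount of RNA per cell cannot be told apart.

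On the scanner's own scale, probe ILMN_3138732 gave intensities of 919.5, 949.0 and 901.5 on WT 1, 2 and 3, and of 1611, 1467 and 1896 on KO 1, 2 and 3. All 3 KO values lay above all 3 WT values. After normalisation its levels were 9.74, 9.73 and 9.58 in WT and 10.56, 10.51 and 10.80 in KO. Mean levels were 9.69 ± 0.09 for WT and 10.62 ± 0.15 for KO (SD, n = 3 in both). The difference was 0.93 (SE 0.12, 95% interval 0.67 to 1.20, limma adjusted p = 0.0435). It ranked 20 among the 19099 probes by p.

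Probe ILMN_1235070, annotated to another transcript record of Nrap, gave 4435, 4520 and 3831 in WT and 7659, 6697 and 7854 in KO on the scanner's scale. Here too the groups did not overlap. Its normalised levels were 12.12, 12.10 and 11.87 in WT and 12.86, 12.77 and 12.88 in KO. The difference was 0.81 (SE 0.11, 95% interval 0.55 to 1.06), a 1.75-fold ratio, with a limma adjusted p of 0.0527. Both probes read the same 6 RNA samples, so they are not separate replicates.

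Probe ILMN_3061287, annotated to the same transcript record as ILMN_3138732, was detected on 2 WT and 2 KO arrays. Its levels of 5.14, 5.08 and 4.69 in WT and 5.18, 4.81 and 5.41 in KO overlapped, with a difference of 0.17 (SE 0.18, 95% interval -0.26 to 0.59, limma adjusted p = 0.928). It was 0.026 without WT 3, 0.030 without KO 3 and 0.33 without KO 2. Where the 3 probes lie in the Nrap transcripts was not known here, and the dim probe sits where the array resolves little above its controls.

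The call for Nrap was close to the threshold. The differences within the littermate pairs were 0.81, 0.78 and 1.21 for probe ILMN_3138732 and 0.75, 0.67 and 1.01 for ILMN_1235070, so KO was above its WT littermate in all 3 pairs for both. With the pairs as a block the limma adjusted p was 0.0579 for ILMN_3138732 and 0.0669 for ILMN_1235070, and with 1 probe per gene it was 0.0529 for ILMN_1235070, the probe that then stood for Nrap. Without WT 1, WT 2, WT 3, KO 1, KO 2 or KO 3 the adjusted p of ILMN_3138732 was 0.185, 0.142, 0.0739, 0.202, 0.187 and 0.141, while its difference stayed between 0.85 and 0.99. In the authors' deposited table of normalised intensities, tested in the same way, both probes passed, at an adjusted p of 0.0218 each. Quantile normalisation without background correction gave both probes the same limma adjusted p of 0.0218. The differences in both settings were nearly identical, so they are not separate checks of the call. Over all alternatives the adjusted p of ILMN_3138732 ranged from 0.0218 to 0.202.

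Slow fibre markers moved in the same direction as Nrap. All 5 fixed slow fibre markers had positive differences (median 0.63, 0.20 to 0.84), against 50.4% of all probes. Of the 5, 0 passed the limma threshold and 4 were higher at an unadjusted p under 0.05, against 3.92% of all probes. The summed scanner intensity of the 5 markers ran from 23313 to 31564 in WT and from 33242 to 38513 in KO. The 5 fast fibre markers were mixed, with 2 positive and 3 negative differences from -0.76 to 1.49: the myosin gene Myh1 rose (1.49, limma adjusted p = 0.0297), and Pvalb, the calcium buffer parvalbumin, had -0.76 (adjusted p = 0.439). Their summed intensity was 45538 to 51045 in WT and 44203 to 45520 in KO. The part of either list in the Nrap result was not tested. Of 9414 genes detected on all arrays, the 3 whose level followed Nrap probe ILMN_1235070 most closely were Otulin, a deubiquitinase of linear chains (Pearson r = 0.996), Ankrd2, which binds titin (r = 0.995), and Tnni1, the slow troponin I (r = 0.991). These r are over 6 arrays that include both genotypes, and describe these arrays alone.

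**Figure D1:**
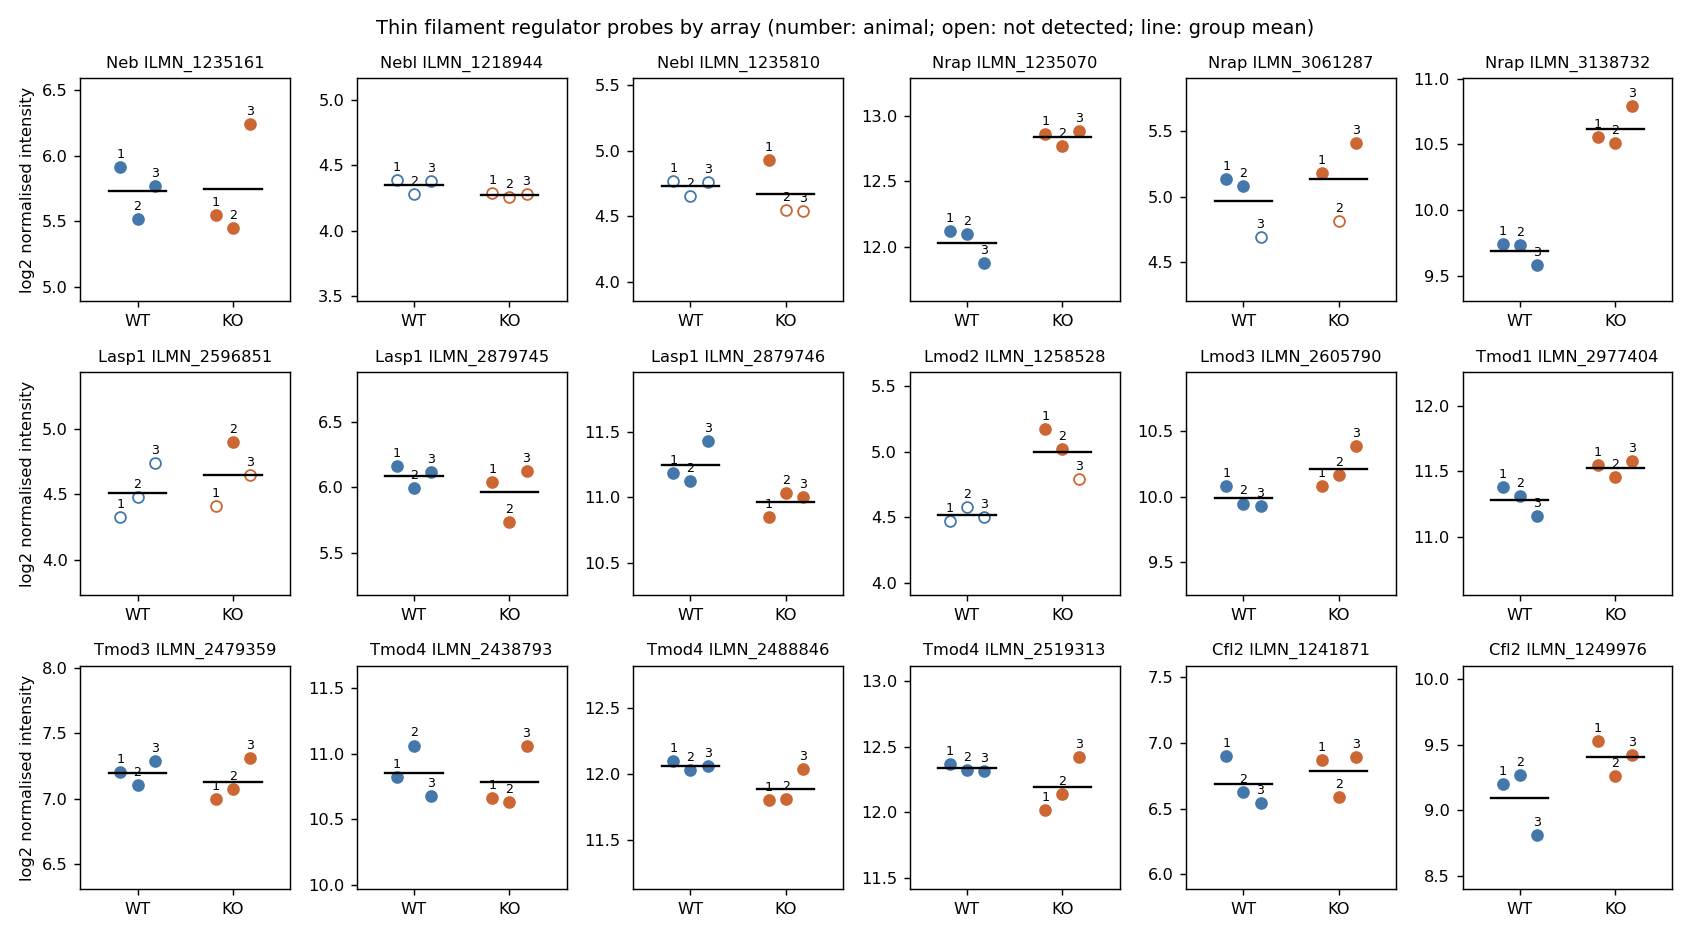
Log2 normalised intensity of all 18 probes of the 10 genes, 1 panel per probe headed by gene and probe, with WT arrays in blue and KO arrays in orange. Each point is 1 array numbered by animal, open points were not detected, the line is the group mean, and every vertical axis spans the same log2 range; Nrap ILMN_1235070 and ILMN_3138732 are the panels in which the groups stand furthest apart.

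The promoter windows of Nrap and Lmod2 are shown because these were the members with the largest positive differences, Lmod2 untested at the edge of detection. They are RefSeq sequences of the assembly GRCm38.p6, from 250 bases before to 50 bases after the annotated start, written 5′ to 3′ on the strand of the gene, and 7 of the 10 genes had such a window. Capitals mark the E-box CANNTG, the site of myogenic bHLH factors, searched on both strands together with the MCAT element CATTCC, the TATA box TATAAA, the CArG box bound by SRF and the MEF2 site. The Nrap window lies on the minus strand at chr19:56389989-56390288 and the Lmod2 window on the plus strand at chr6:24597521-24597820.
Nrap: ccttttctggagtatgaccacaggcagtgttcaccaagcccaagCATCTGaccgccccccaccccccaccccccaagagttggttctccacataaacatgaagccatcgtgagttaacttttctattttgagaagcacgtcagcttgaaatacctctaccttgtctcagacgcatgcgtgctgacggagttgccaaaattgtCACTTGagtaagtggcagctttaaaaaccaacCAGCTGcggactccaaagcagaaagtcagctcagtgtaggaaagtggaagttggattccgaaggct
Lmod2: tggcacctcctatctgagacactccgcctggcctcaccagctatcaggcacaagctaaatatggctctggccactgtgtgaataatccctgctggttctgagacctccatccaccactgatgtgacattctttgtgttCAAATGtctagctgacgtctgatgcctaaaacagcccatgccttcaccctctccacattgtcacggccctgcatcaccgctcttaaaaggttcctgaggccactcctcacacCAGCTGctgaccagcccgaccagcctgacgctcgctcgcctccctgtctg
The Nrap window held 3 E-boxes and the Lmod2 window 2. The form CAGCTG occurred in both, but its share over all windows was not counted. The other 4 motifs had no match in either. An E-box was present in 72.3% of all 32851 windows of 300 bases, an MCAT element in 14.7%, a TATA box in 13.6%, a MEF2 site in 3.19% and a CArG box in 1.63%.

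The 1 probe for nebulin, close to background, did not show a difference that these arrays could resolve. Neb encodes the giant protein that lies along the thin filament and is a direct partner of Klhl40. Its single probe gave scanner intensities of 148.8, 136.0 and 148.6 in WT and 136.3, 130.5 and 168.8 in KO, and array medians were 111 to 113. KO 3 was the highest of the 6 arrays and KO 2 the lowest, so the groups overlapped. Mean levels were 5.73 ± 0.20 for WT and 5.74 ± 0.43 for KO (SD, n = 3 in both). The difference was 0.01 (SE 0.22, 95% interval -0.49 to 0.51, limma adjusted p = 0.997). Without background correction the SE was 0.09, so the width of the interval depends on that step. For a probe so close to background it does not bound the ratio of Neb transcript. The sign turned with the setting, to -0.025 with median centring, -0.24 without KO 3 and -0.10 without WT 2.

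Nebulette and Lasp1 are the short members of the nebulin family, nebulette at the Z-discs of the heart and Lasp1, with a LIM and an SH3 domain, at focal adhesions of many cells. Neither Nebl probe passed the filter. Probe ILMN_1218944 was detected on 0 of 6 arrays, at 98.0 to 105.5 on the scanner's scale, and ILMN_1235810 on KO 1 alone, at 120.7 against 109.8 to 117.2 on the others. Nebl was therefore at or near the level of the controls, and no ratio is given.

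Lasp1 probe ILMN_2879746 gave 2393, 2368 and 2898 in WT and 1952, 2088 and 2186 in KO. All KO values lay below all WT values, and WT 3 was the highest. The normalised difference was -0.29 (SE 0.12, 95% interval -0.56 to -0.01, limma adjusted p = 0.681), so it did not pass. Without WT 3 it was -0.20. This probe was the member lower at an unadjusted p under 0.05. Probe ILMN_2879745 had -0.12 (SE 0.13) with overlapping groups, and -0.0098 without KO 2, and ILMN_2596851 was detected on KO 2 alone. Smooth muscle markers, from cells that also express Lasp1, were lower in the same arrays. All 5 measured of 6 had negative differences (median -0.22, -0.48 to -0.06). Of the 5, 0 passed the limma threshold and 2 were lower at an unadjusted p under 0.05, against 3.09% of all probes. The summed scanner intensity of the 5 markers was 16959 to 17391 in WT and 12381 to 12568 in KO. Markers of other non-fibre cells were mostly negative too, with 0 past the limma threshold: 6 of 6 macrophage and leukocyte genes (median -0.15), 5 of 5 endothelial (-0.08), 5 of 5 adipocyte (-0.66) and 5 of 6 fibroblast genes (-0.06). Summed intensities were 1747 to 2159 in WT and 1565 to 1832 in KO for macrophages and leukocytes, and 3946 to 4821 and 3659 to 4102 for endothelium. They were 1168 to 7268 in WT and 1435 to 1884 in KO for adipocytes, and 20825 to 22845 and 19943 to 20325 for fibroblasts. For macrophages and leukocytes, endothelium and adipocytes WT 3 alone set the upper WT value. WT 1 and WT 2 gave 1747 and 1774, 3962 and 3946, and 2110 and 1168 for these lists. KO 3 lay above both for the first and second of these lists, and WT 2 lay below every KO array for adipocytes. The part of these cells in the Lasp1 values was not tested.

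Leiomodin-3, the leiomodin of skeletal muscle and a direct partner of Klhl40, was well detected and did not pass. Lmod3 gave 1161, 1081 and 1114 in WT and 1178, 1183 and 1471 in KO on the scanner's scale, where the groups did not overlap by a narrow margin. After normalisation WT 1 and KO 1 were level at 10.09, and the others were 9.95 and 9.93 in WT and 10.17 and 10.39 in KO. The difference was 0.23 (SE 0.12, 95% interval -0.04 to 0.50, limma adjusted p = 0.764), and 0.14 without KO 3. The lower bound of -0.04 holds for this probe and this fit alone. Without KO 3 the SE was 0.115 beside the difference of 0.14. The bound thus depends on KO 3 and does not limit the loss of Lmod3 transcript. Over the 9414 genes the levels of Pik3ca (r = 0.987), Thtpa (r = 0.984) and Eif2b4 (r = 0.983) followed Lmod3 most closely over the 6 arrays.

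Lmod2, the leiomodin best known from the heart, was at the edge of detection. Its probe gave 108.4, 112.4 and 110.0 in WT and 126.2, 120.2 and 117.6 in KO. All KO values lay above all WT values, but the probe was detected on 0 WT arrays and on KO 1 and KO 2, and so did not enter the test. Normalised levels were 4.52 ± 0.06 for WT and 4.99 ± 0.19 for KO (SD, n = 3 in both). With each WT array set to its lowest detected signal (4.80 to 4.84), the ratio of KO to WT was 1.13. KO 3, at 4.79, was itself undetected, so this ratio is not a lower bound and does not show a rise. In the fit over all 45281 probes its limma adjusted p was 0.454, and an exact permutation test of 3 against 3 cannot go below p = 0.1.

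Tropomodulins cap the pointed end. Tmod1, which also caps filaments in red cells and the heart, gave 2711, 2688 and 2418 in WT and 3112, 2796 and 3186 in KO. The groups did not overlap, and the difference was 0.24 (SE 0.10, 95% interval -0.001 to 0.48, limma adjusted p = 0.711). Of 5 erythroid markers the 2 measured, Hba-a1 and Alas2, had differences of -0.07 and -0.10 (median SE 0.20). Their summed scanner intensity was 24121 to 28502 in WT and 19006 to 28406 in KO. The part of red cells in the Tmod1 values was not tested. Tmod3, the widely expressed tropomodulin, had overlapping groups, at 6.996 to 7.31 in KO and 7.11 to 7.29 in WT, with a difference of -0.07 (SE 0.12, limma adjusted p = 0.955). Leaving out single arrays moved it from -0.17 (without KO 3) to -0.0095 (without KO 1).

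Tmod4, the tropomodulin of skeletal muscle, had 3 detected probes and a negative difference on each. Probe ILMN_2519313 gave 5261, 5359 and 5124 in WT and 4353, 4459 and 5741 in KO, probe ILMN_2488846 gave 4417, 4338 and 4272 in WT and 3735, 3503 and 4445 in KO. On both, KO 1 and KO 2 were the lowest arrays and KO 3 was the highest of all on the scanner's scale. The differences were -0.14 (SE 0.12), -0.18 (SE 0.11) and, for ILMN_2438793, -0.07 (SE 0.16), with limma adjusted p of 0.908, 0.819 and 0.970. Without KO 3 they were -0.26, -0.26 and -0.21, and without KO 1 the first was -0.054. The third probe turned to 0.037 without WT 2 and 0.010 without KO 2.

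Cofilin 2 is the muscle cofilin. Its probe ILMN_1249976 gave 670.0, 714.1 and 571.9 in WT and 820.5, 666.3 and 796.6 in KO. KO 2 lay among the WT values. The difference was 0.31 (SE 0.15, 95% interval -0.03 to 0.65, limma adjusted p = 0.734), and 0.17 without WT 3. The dimmer probe ILMN_1241871 had 0.10 (SE 0.14, adjusted p = 0.946), and from 0.022 (without WT 3) to 0.20 (without WT 1).

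**Figure D2:**
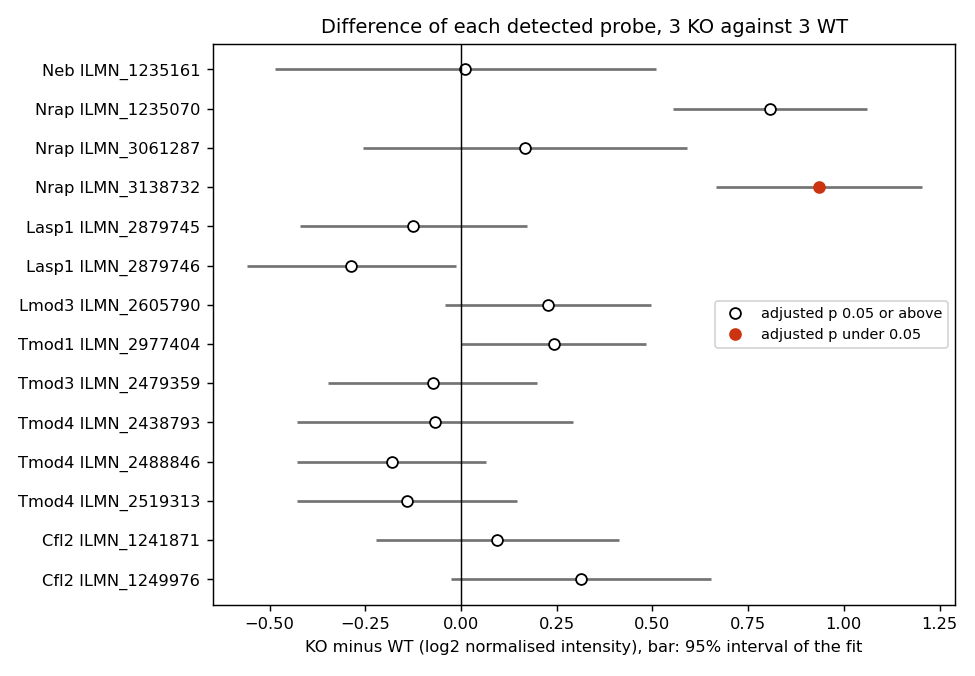
KO minus WT on the log2 scale for the 14 detected probes, with the 95% interval of the limma fit over 3 arrays per group. The filled point, Nrap ILMN_3138732 at 0.93, has an adjusted p under 0.05; the interval of Nrap ILMN_1235070 also lies above 0, that of Lasp1 ILMN_2879746 lies just below 0, and the other 11 include 0.

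Over the 14 probes 8 differences were positive, against 50.4% of all probes, and 6 negative, from -0.29 to 0.93, with a median of 0.05 against 0.002 over all probes tested. All KO values lay above all WT values for 3 of the 14, against 7.25% of all probes, and below for 1, against 6.07%; the 3 were both brighter Nrap probes and Tmod1, the 1 was Lasp1. KO was above its WT littermate in all 3 pairs for the same 3 probes, against 17.1% of all probes, and below in all 3 for Lasp1 ILMN_2879746 and Tmod4 ILMN_2488846, against 15.8%. Taking 1 probe for each of the 8 detected genes, 5 differences were positive and 3 negative (median 0.12). The standard error over the beads of a probe, 28 to 68 beads on each array, was 1.61% to 5.24% of its intensity on these 14 probes. Between animals, on the scanner's scale, the coefficient of variation was as low as 1.67% in WT and ran from 5.67% to 19.3% in KO. On that scale the WT animals differed by no more than the bead error for some probes, such as Tmod4 ILMN_2488846 and Nrap ILMN_3138732 (2.60%). The comparison was not made on the normalised levels that were tested, where the WT SD of that Nrap probe was 0.09.

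Littermate pair 3 differed from the other pairs across the members. The KO minus WT difference was largest in pair 3 for 13 of the 14 probes, against 36.2% of all probes tested and 25 of the 53 other genes in the pathway lists described next. KO 3 held the highest KO level for 12 of the 14 (36.9% of all probes), and WT 3 the lowest WT level for 9 (41.1%). The exception to the first count was Lasp1 ILMN_2879746, with -0.43 in pair 3 against -0.34 and -0.10. For Neb the pairs gave -0.37, -0.07 and 0.47. These counts were chosen after the values were seen, and probes of the same gene repeat each other.

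**Figure D3:**
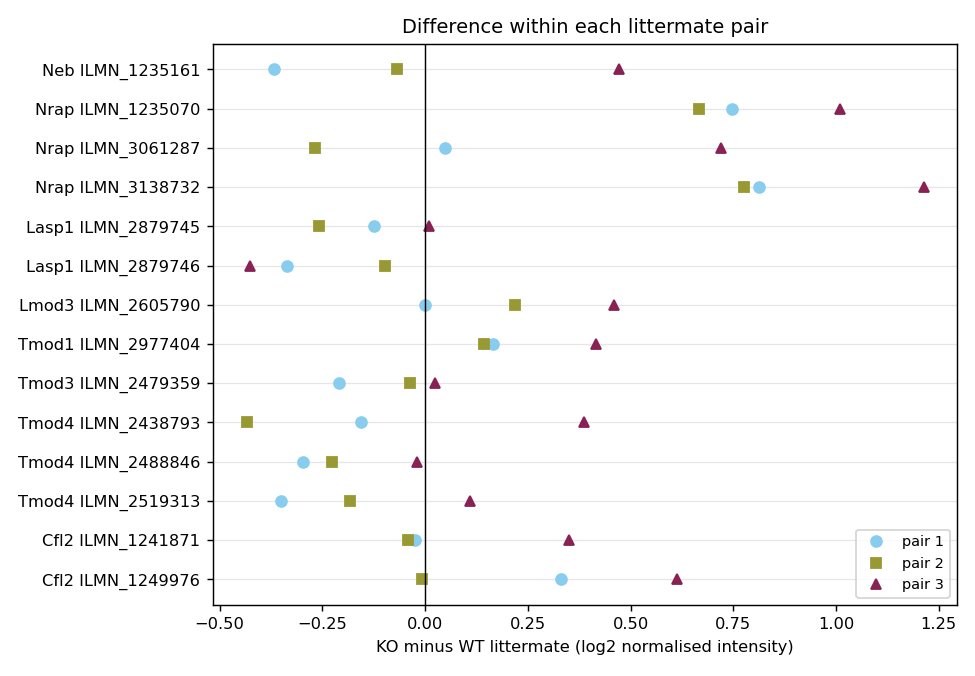
KO minus WT within each of the 3 littermate pairs for the 14 detected probes, on the log2 scale. Triangles (pair 3) lie furthest right for 13 of the 14 probes, and all 3 pairs lie well above 0 for Nrap ILMN_1235070 and ILMN_3138732.

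Other genes of the thin filament, of filament turnover and of Z-disc partners of nebulin family proteins were followed as lists, each gene by its brightest detected probe. Among 17 measured actin, tropomyosin, troponin and nemaline myopathy genes 0 passed the limma threshold. At an unadjusted limma p under 0.05, 5 were higher and 0 lower, against 3.92% and 3.09% of all probes. The median difference of the 17 was 0.04. The smallest p belonged to the slow troponin I gene Tnni1, at 0.63 (SE 0.11, adjusted p = 0.143), and the slow tropomyosin gene Tpm3, at 0.52 (SE 0.15, adjusted p = 0.443). Among 23 measured genes for actin capping, severing and assembly 0 passed. At an unadjusted limma p under 0.05, 1 was higher and 0 lower, against the same 3.92% and 3.09%. The median of the 23 was -0.005. The smallest p there belonged to the formin Daam1, which elongates actin filaments, at 0.24 (SE 0.10), and to the profilin gene Pfn2, at 0.35 (SE 0.15).

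The list of Z-disc partners, which also held Des, Zyx, Vasp, Tln1 and Vcl, included 2 genes that passed. Of 13 measured, 10 had positive differences (median 0.25), against 50.4% of all probes. Of the 13, 2 rose and 0 fell past the threshold, against 0.12% and 0.0314% of all probes. Csrp3, the muscle LIM protein, rose from 12.23 ± 0.39 to 13.80 ± 0.05 (SD, n = 3 each; limma adjusted p = 0.0349), and Xirp2, an actin-binding Xin repeat protein, rose from 8.98 ± 0.16 to 10.23 ± 0.22 (SD, n = 3 each; limma adjusted p = 0.0349). The lists were chosen with earlier results of these data known, so that these calls do not add independent evidence. The count of list genes that passed was 2 without WT 3, 1 without WT 2 and 0 without WT 1, KO 1, KO 2 or KO 3.

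**Figure D4:**
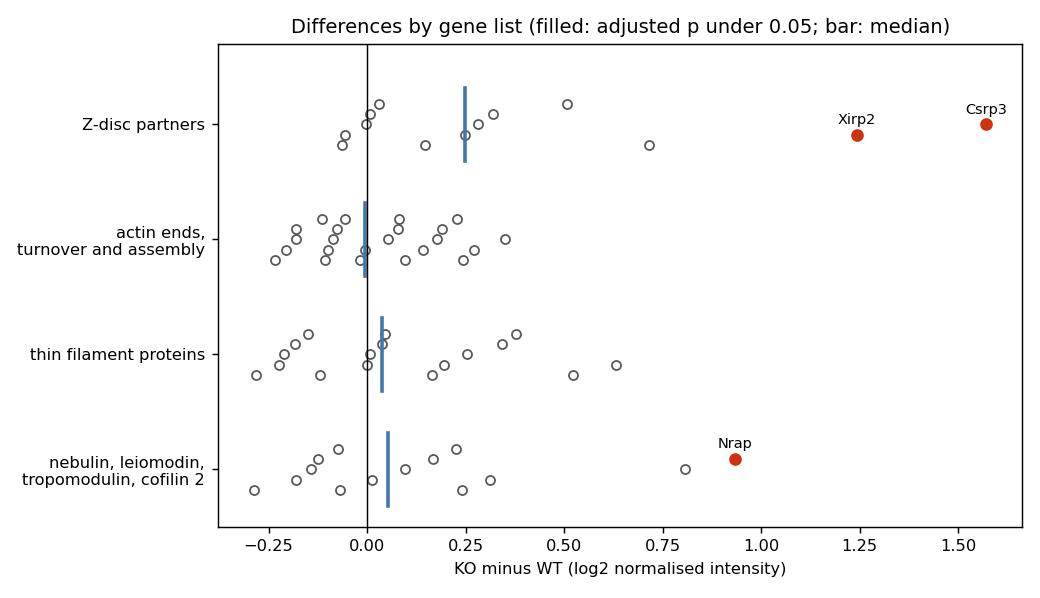
KO minus WT on the log2 scale for the 14 member probes and, by 1 probe per gene, for 17 thin filament, 23 actin turnover and 13 Z-disc partner genes. Filled points have an adjusted p under 0.05 (Nrap, Xirp2 and Csrp3) and the blue bar is the median of each row, at 0.05, 0.04, -0.005 and 0.25 from bottom to top.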

How the data were processed

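RNA of 6 mice was measured on 1 bead array each and grouped by the genotype in the titles. Per the file headers, the authors deposited the mean bead intensity, the standard error over beads, the number of beads (other) and a detection p-value for each probe and array; the intensity is linear and not background-subtracted, as read from its values. A second table that the authors deposited holds 1 normalised intensity per probe, whose sorted columns differ by at most 0.466. The sources used here name neither scanner nor software. Per the labels' protocols, Trizol RNA was labelled with Cy3 by an Ambion MessageAmp kit. Each array detected 18373 to 19189 probes, and the number of arrays limits the precision.

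Gene symbols came from the platform annotation (34885 of 45281 probes had 1). Intensities were normalised by neqc in limma 3.58.1 (R 4.3.3): normexp background correction on controls inferred from the detection p-value, offset 16, quantile normalisation, log2. The genotypes were compared with limma (lmFit and eBayes, two-sided) over all 19099 probes that passed, with Benjamini-Hochberg adjustment and a threshold of 0.05; every probe was tested rather than 1 per gene, because the members are probes. It called 23 probes higher and 6 lower. Replicate numbers follow the titles and the design text pairs littermates; deviations from group means correlated by 0.31, 0.21 and 0.45 within pairs (-0.39 to 0.23 between others). Alternatives were background correction, normalisation, filters, 1 probe per gene, the authors' table, a pair block and leaving out each array. All 10 genes were named whatever their p, with list genes past the threshold or the 2 with the smallest p. Members and lists were chosen with earlier results of these data known.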

Additional observations from a re-analysis of the deposited data

How the results depend on the processing

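Counts of calls were the least stable values. Of 14 member probes 1 passed as higher; 2 passed without background correction, in the authors' deposited table, with cyclic loess, with detection on all 6 arrays or with a detection p under 0.01, and 0 passed with 1 probe per gene, with no filter, with the littermate pairs as a replicate block, or without each array in turn (0 to 0). Over all probes 23 were higher and 6 lower; 15 were higher with 1 probe per gene, 10 were lower without background correction or in the authors' table, and 13 lower with the pair block. With no filter 0 were higher and 0 lower (2921 at an unadjusted limma p under 0.05), 0 pathway list genes passed against 2, and Klhl40 lost its call at the same difference of -5.73 (limma adjusted p = 0.0636). Without 1 array 2 to 17 probes were higher, 1 to 10 lower and 0 to 2 list genes higher; the 2 higher came without WT 1, KO 1 or KO 2, and the 17 and 10 without WT 3. The pair block changed no other call among the members. The authors' table gave nearly the same values as the setting without background correction, so they are not separate checks. Of the 14 member probes 12 kept their direction under every alternative run; Neb turned to -0.025 with median centring and ranged from -0.24 (without KO 3) to 0.16 without each array in turn, and Tmod4 ILMN_2438793 ranged from -0.21 (without KO 3) to 0.037 (without WT 2). Probes near the controls (Neb, Nebl, Lmod2 and Nrap ILMN_3061287) are limited by signal over background.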
